A study of Mus musculus with 22 samples.

Results

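Livers of 8-week-old male C57BL/6 mice without a working Slc10a1 gene (Slc10a1-/-, 6 libraries, KO below) were compared with livers of wild-type males of the same strain and age (4 libraries, WT below). These are 10 of the 22 RNA-seq libraries of a study that also sampled both genotypes at 4 weeks and at 20 months, with 3 WT and 3 KO males at each of those ages, from the same strain and tissue. Libraries were chosen by the genotype and age in their labels. Genes were then sorted by whether all 6 KO libraries differed from WT in the same way or whether only some of them did. The study's title names the sulfation of bile acids as its subject. No treatment is named for any group, so the groups differ, as labelled, by genotype and age alone.

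Slc10a1 encodes NTCP, the sodium-dependent transporter on the blood-facing membrane of hepatocytes that takes conjugated bile acids up from portal blood. Bile acids are made from cholesterol in the liver, leave it through a separate export pump, and return with the portal blood, and inside the hepatocyte they act on nuclear receptors that restrain their own synthesis. Many genes of bile acid, steroid and drug handling in the mouse liver are also sex-biased. In adult males the pulsatile release of growth hormone keeps a male set of genes on and a female set off, and this state is set up at puberty.

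The model has limits that the labels leave in place. They do not give which piece of Slc10a1 was removed, so reads may still come from what remains of the gene. They name no litter, cage or time of day, and no bile acid level is tied to a library. Each library is 1 frozen liver sample, and the p-values measure the spread between these samples. In such bulk tissue, fewer cells of a type and less RNA per cell cannot be told apart.

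Each library had 18950112 to 26066897 reads in genes, and a floor of 3 counts corresponded to 0.115 to 0.158 CPM (the reads of a gene relative to a fixed total of reads in genes, scaled by TMM). The liver identity of all 10 libraries was plain: albumin alone gave 46628 to 152907 CPM. Transcripts of the Y chromosome were present in all 10, with Ddx3y at 114 to 125 CPM in WT and 120 to 192 CPM in KO, and Xist was at most 0.849 CPM, as the male labels require. KO library 1 stood apart, with 7.35% of its counts on mitochondrial genes against 4.7% to 5.9% in the other 9 libraries, and the lowest scaling factor (0.855 against 0.963 to 1.06). KO library 6 held transcripts of skeletal muscle: Acta1, the muscle actin, had 1394 reads there and 0 to 3 in each of the other 9 libraries, and Tnnt3, a fast-muscle troponin, had 782 reads there and 0 or 1 elsewhere. The labels name no batch. The part of the muscle reads and of the mitochondrial share in the results below was not tested, and main counts are also given without each of these 2 libraries.

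Calls were few, and 4 genes were called between all 6 KO and all 4 WT libraries, and every KO library lay beyond every WT library in each of them. With edgeR's quasi-likelihood test at an adjusted p below 0.05, 4 of 14522 genes tested were called, or 0.0275%: 1 higher in KO (0.00689%) and 3 lower (0.0207%). The 4 were Slc10a1 itself, Tymp and a neighbouring pair of predicted genes on chromosome 4. All 4 also passed a size rule used throughout. A gene is said to have moved in a KO library where its log2 CPM, with a prior count of 2, lay beyond all 4 WT libraries and at least 1 unit (2-fold) from the WT mean. This describes 1 library at a time and is not a test. Where no method is named below, called means called by edgeR.

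Slc10a1 (GRCm38, chr12:80953183-80968705) had the smallest adjusted p of the 4. Its level was 460, 464, 479 and 475 CPM in WT libraries 1 to 4, and 57.8, 99.9, 72.7, 76.8, 52.3 and 66.8 CPM in KO libraries 1 to 6. The highest KO library was far below the lowest WT library, which checks the genotype labels of all 10. The means were 469 ± 8.97 (SD, n = 4) and 71.1 ± 16.8 CPM (SD, n = 6), a fall on the log2 scale of -2.72 (SE 0.16, edgeR adjusted p = 9.0e-05). Reads were still counted at the locus in all 6 KO libraries. None of the other genes tested within 200 kb was called: the log2 differences of Susd6, Srsf5 and Smoc1 were -0.06, 0.35 and 0.19.

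Tymp (chr15:89371931-89377039) encodes thymidine phosphorylase, which splits thymidine into thymine and a sugar phosphate in pyrimidine breakdown. It was at 10.1, 11.95, 13.7 and 19.04 CPM in WT and at 74.4, 40.6, 41.7, 60.7, 53.9 and 54.9 CPM in KO. KO libraries 3 and 4, which sat with WT for most genes described below, were as high as the rest, and the groups did not overlap. The means were 13.7 ± 3.86 and 54.4 ± 12.6 CPM (SD, n = 4 and n = 6), and Tymp rose by 1.99 on the log2 scale (SE 0.23, edgeR adjusted p = 0.0156). Refits with 1 library fewer ended its call for WT libraries 1, 2 and 3 (edgeR adjusted p = 0.0852, 0.106 and 0.135) and for KO libraries 5 and 6 (0.0613 and 0.0601). The genes beside it did not move with it: Ncaph2, a condensin subunit gene whose end overlaps Tymp, Odf3b and Lmf2 differed by -0.06, -0.05 and 0.15 on the log2 scale. The stretch of 250 bases before the RefSeq start of Tymp is shown because Tymp is the gene that rose in all 6. It lies on the minus strand of GRCm38.p6 at chr15:89377037-89377286, and it held none of the 4 motifs searched on both strands, which are listed further on.
Tymp: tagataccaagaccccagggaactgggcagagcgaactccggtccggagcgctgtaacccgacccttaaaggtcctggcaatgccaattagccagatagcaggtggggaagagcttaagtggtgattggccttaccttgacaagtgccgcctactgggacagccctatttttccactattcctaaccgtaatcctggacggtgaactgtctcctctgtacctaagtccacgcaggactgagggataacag

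The other 2 genes that fell in all 6 KO libraries were low and lay next to each other. Gm17167 (chr4:42206998-42235313, a processed transcript) had 57, 42, 41 and 49 reads in WT and 5, 1, 4, 5, 6 and 9 reads in KO. Its means were 2.07 ± 0.0640 and 0.224 ± 0.109 CPM (SD, n = 4 and n = 6), a fall on the log2 scale of -3.17 (SE 0.33, edgeR adjusted p = 0.0119). Gm5859 (chr4:42236859-42239182, an unprocessed pseudogene) had 18, 15, 16 and 22 reads in WT and 2, 2, 3, 0, 2 and 1 in KO, a fall of -3.28 (SE 0.42, edgeR adjusted p = 0.0345). Both differences rest on few reads, and a pseudogene may share reads with near-identical copies. At the other ages sampled, both genes were at most 0.431 CPM in WT. Their falls are thus relative to the WT libraries of this age alone. No other gene tested began within 400 kb of them. The Gm17167 call ended when WT library 1, 2 or 3 or KO library 5 was left out (edgeR adjusted p = 0.0734, 0.0562, 0.0812 and 0.0533). The Gm5859 call ended when any WT library or KO library 1, 2, 5 or 6 was left out. The Slc10a1 call was kept in each of these 10 fits. The number of genes moved alike and called thus ranged from 0 to 1 higher and from 1 to 4 lower when 1 library was left out.

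**Figure D1:**
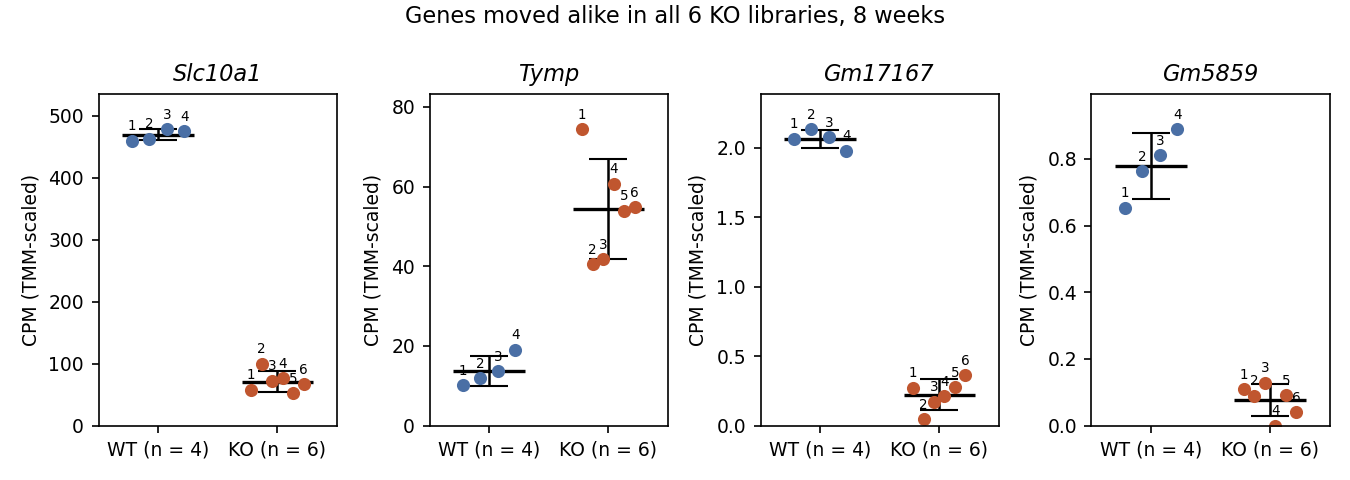
Level of the 4 genes called in all 6 KO livers, in CPM on a linear axis, with each library as a point labelled by its number, the line as the group mean and the bar as the SD. KO livers sat below WT for Slc10a1 (52.3 to 99.9 against 460 to 479 CPM), Gm17167 and Gm5859, and above WT for Tymp (40.6 to 74.4 against 10.1 to 19.04 CPM).

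A further 3 genes moved in all 6 KO libraries without passing edgeR's test. DESeq2, the second method described below, called Gm42427 and Gm21887 of these (DESeq2 adjusted p = 1.7e-06 and 0.0022). Gm42427, a predicted gene, was at 75.3, 74.2, 129 and 115 CPM in WT and at 12.6, 3.61, 22.7, 24.8, 20.1 and 11.3 CPM in KO (log2 difference -2.63, SE 0.43, edgeR adjusted p = 0.201). Kcnj15, a potassium channel gene, was at 43.7 CPM in WT library 1 but at 1.17, 1.22 and 1.33 CPM in the other WT libraries, and at 0.428 to 0.964 CPM in KO, so its log2 difference of -4.19 turned on 1 WT library. Gm21887 was at 0.0509 to 0.405 CPM in WT and at 0.763 to 2.96 CPM in KO, a low gene with a log2 difference of 2.65.

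When size and test were both set aside, all 6 KO libraries lay above all 4 WT libraries for 191 genes (1.32% of those tested) and below them for 176 (1.21%). Of these, 1 and 3 were called by edgeR. Papss1, which makes the sulfate donor PAPS that all sulfotransferases use, had the groups apart: 8.92, 10.6, 9.98 and 6.83 CPM in WT and 4.72, 5.32, 3.89, 4.24, 4.32 and 4.74 CPM in KO. Its log2 difference was -1.001 (SE 0.15) with an edgeR adjusted p of 0.101. Pfkfb3, an enzyme that sets the pace of glycolysis, was at 31.7 CPM or more in WT and at 6.61 to 27.2 CPM in KO (log2 difference -1.61, adjusted p = 0.474). At 4 weeks, against its own controls, Pfkfb3 fell, with a log2 difference of -1.24 and an edgeR adjusted p of 0.0359. Cep85, a centrosome gene, was at 157 to 203 CPM in WT and 49.1 to 108 CPM in KO. Clock, a core activator of the daily clock, was at 55.1 to 68.8 CPM in WT and 71.5 to 110 CPM in KO, a small shift (log2 difference 0.47) in all 6. DESeq2 called Papss1, Pfkfb3 and Cep85 (DESeq2 adjusted p = 1.7e-06, 0.0036 and 4.9e-04) but not Clock. These 4 genes were picked after their values were seen.

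Far more genes moved in some KO libraries than in all of them. The spread among the 6 KO libraries was wide: the median SD of log2 CPM over genes was 0.357 in KO against 0.153 in WT, the KO value was the larger for 12789 genes (88.1%), and it was over 1 for 1099 genes (7.57%) in KO and for 139 (0.957%) in WT. KO library 1 moved the most, with 1714 genes higher (11.8%) and 2082 lower (14.3%). KO library 2 had 927 higher (6.38%) and 814 lower (5.61%), KO library 5 had 602 (4.15%) and 489 (3.37%), and KO library 6 had 690 (4.75%) and 571 (3.93%). KO libraries 3 and 4 had 108 and 98 genes higher (0.744% and 0.675%), with 230 and 473 lower (1.58% and 3.26%). For scale, each WT library set against the other 3 WT libraries by the same rule gave 31 to 354 genes higher and 91 to 209 lower, so KO libraries 3 and 4 were within that range for genes higher and beyond it for genes lower.

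**Figure D2:**
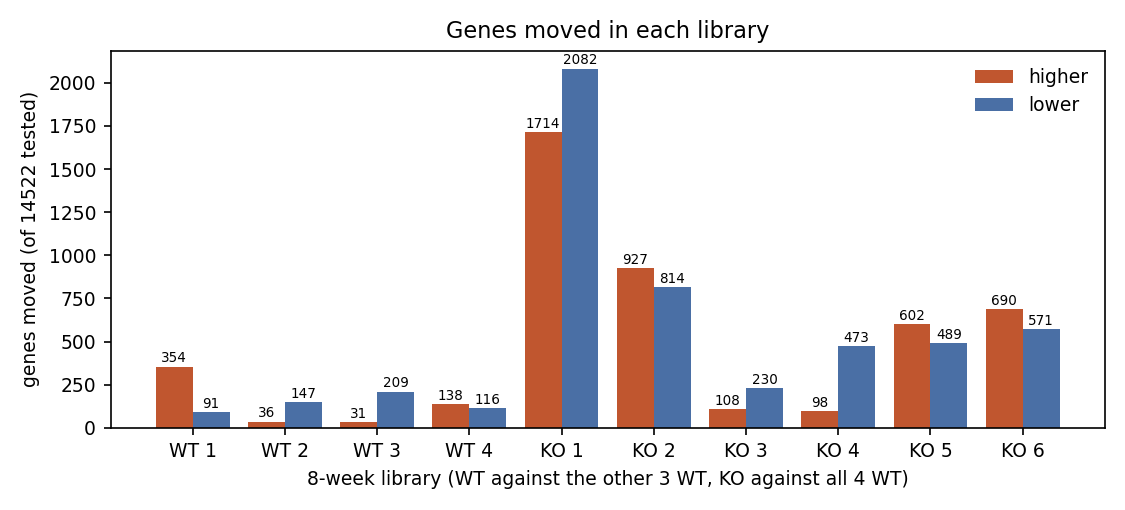
Number of genes, of 14522 tested, at least 2-fold beyond the WT libraries in each 8-week library, with bars for genes higher and genes lower; each WT library was set against the other 3. KO libraries 1, 2, 5 and 6 held 602 to 1714 genes higher, and KO libraries 3 and 4 held 108 and 98, within the 31 to 354 of the WT libraries. For genes lower, KO libraries 3 and 4 held 230 and 473, beyond the 91 to 209 of the WT libraries.

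The 4 calls from edgeR therefore sit beside many large but divided differences. An unadjusted p below 0.05 was given to 1517 genes, 967 higher and 550 lower, and the median log2 difference of all genes was 0.02. DESeq2, which estimates the spread of each gene in another way, called 74 genes higher (0.512% of 14443 with an adjusted p) and 33 lower (0.228%), and all 4 edgeR genes were among them. Of its 74, 59 had moved higher in 2 to 5 KO libraries, 2 in all 6, 2 in 1 and 11 in none. By the fixed rule, 716 genes (4.93%) were higher and 648 (4.46%) lower in 2 to 5 KO libraries with at least 1 other KO library inside the WT range. A further 408 (2.81%) had KO libraries beyond WT on both sides, 2716 (18.7%) moved in 1 KO library alone, and 9695 (66.8%) moved in none. The first 2 counts were 387 and 387 without KO library 1, 414 and 468 without KO library 2, and 528 and 567 without KO library 6.

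The libraries that moved together were for the most part drawn from KO libraries 1, 2, 5 and 6, more so for genes higher than for genes lower. Whatever the remaining libraries did, 1033 genes were higher in 2 to 5 KO libraries, and for 949 of them (91.9%) all the libraries concerned were among those 4. For 31 genes (3%) they were KO libraries 3 and 4, and for 53 (5.13%) a mixture. Of 992 genes lower in 2 to 5 libraries, 757 (76.3%) were lower only among KO libraries 1, 2, 5 and 6, 49 (4.94%) only in 3 and 4, and 186 (18.8%) in a mixture. The full set of 1, 2, 5 and 6 held 200 genes higher (1.38% of those tested) and 213 lower (1.47%), libraries 1 and 2 alone 232 (1.6%) and 190 (1.31%), and libraries 1, 2 and 6 alone 157 (1.08%) and 124 (0.854%). Libraries 3 and 4 alone held 31 genes higher (0.213%) and 49 lower (0.337%). These counts describe 6 mice that share 1 set of controls. The KO libraries were not grouped by these patterns for any average or test, because the labels give no such groups.

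**Figure D3:**
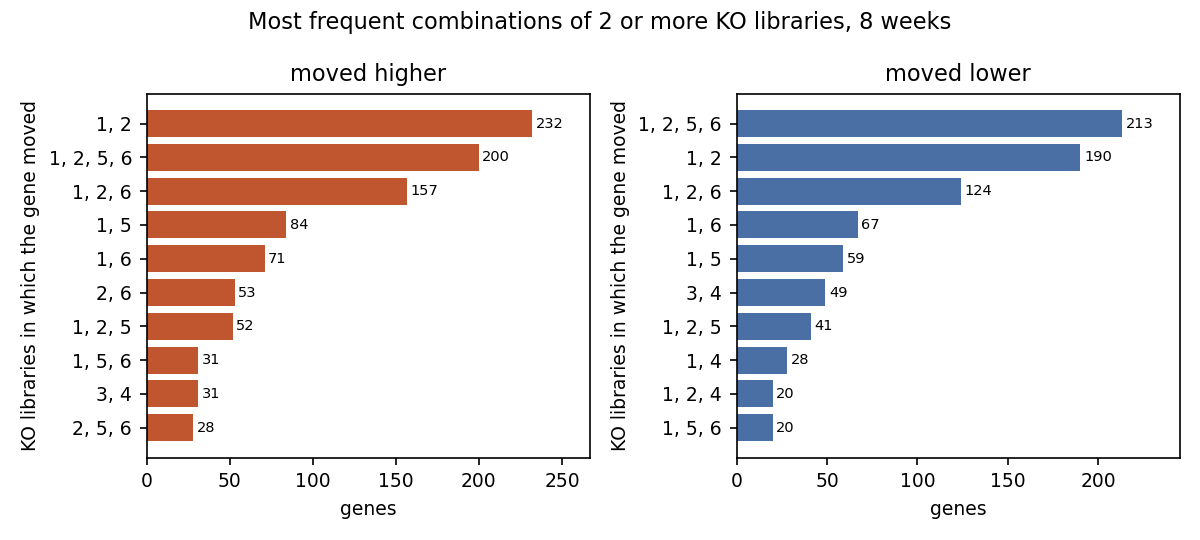
Number of genes that were at least 2-fold beyond all WT libraries in exactly the KO libraries named, for the 10 most frequent combinations of 2 or more KO libraries in each direction. The sets 1+2 (232 higher, 190 lower) and 1+2+5+6 (200 higher, 213 lower) were the most frequent.

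Genes that are known to be higher in the male liver were far below WT in 4 of the 6 KO males and at or above WT in the other 2. Of 33 male-biased genes tested, 29 were lower in exactly KO libraries 1, 2, 5 and 6. By library, 32, 31, 1, 0, 30 and 31 of the 33 were lower in KO libraries 1 to 6, and 4 and 7 were higher in KO libraries 3 and 4. The median log2 shift of the list was -4.71, -4.37, 0.53, 0.595, -3.52 and -4.37 in KO libraries 1 to 6, while the WT libraries lay between -0.18 and 0.15. No member was called at 8 weeks, and the list's median fitted log2 difference was -0.77 beside 0.02 for all genes.

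Single genes of this list showed how complete the split was. Elovl3, a fatty acid elongase, was at 72.3, 55.1, 49.6 and 48.8 CPM in WT, at 123 and 210 CPM in KO libraries 3 and 4, and at 0.164, 0.270, 0.0919 and 0.203 CPM in KO libraries 1, 2, 5 and 6. Its fitted log2 difference was -0.02 (SE 1.69, edgeR adjusted p = 0.996), and the sign turned when KO library 1, 2, 5 or 6 or WT library 1 was left out (-1.18 to 0.24 over the 10 fits). Hsd3b5, a male-specific steroid dehydrogenase, was at 88.3 to 161 CPM in WT, at 178 and 343 CPM in KO libraries 3 and 4, and at 0.184 to 0.361 CPM in the other KO libraries. The last values are near the floor of 3 counts, so in these 4 livers the transcript was close to the limit of detection.

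Mup20, a major urinary protein that serves as a male scent signal, was at 2068, 2329, 1244 and 1044 CPM in WT and at 5.65, 5.18, 3455, 3547, 73.1 and 4.46 CPM in KO libraries 1 to 6. KO library 5 was thus low but above libraries 1, 2 and 6. Its Mup relatives are near-identical copies, so a level for each copy is uncertain. Cyp4a12a, a male-specific fatty acid hydroxylase, was at 154 to 230 CPM in WT, at 322 and 312 CPM in KO libraries 3 and 4, and at 0.162 to 1.33 CPM in the other KO libraries. Serpina1e, an alpha-1-antitrypsin, was at 9881 to 10642 CPM in WT, at 12990 and 9923 CPM in KO libraries 3 and 4, and at 322 to 1154 CPM in the rest. C9, the last component of the complement attack complex, was at 834 to 1129 CPM in WT, 1214 and 1044 CPM in KO libraries 3 and 4, and 22.5 to 193 CPM in the rest. Srd5a1, a steroid 5-alpha-reductase, followed with 73.7 to 101 CPM in WT, 81.0 and 98.8 CPM in KO libraries 3 and 4, and 2.69 to 13.9 CPM in the others. Hsd17b6, an androgen-handling dehydrogenase, broke the pattern, with 153 CPM in KO library 5 and 15.6 CPM in KO library 3 beside 58.9 to 104 CPM in WT.

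**Figure D4:**
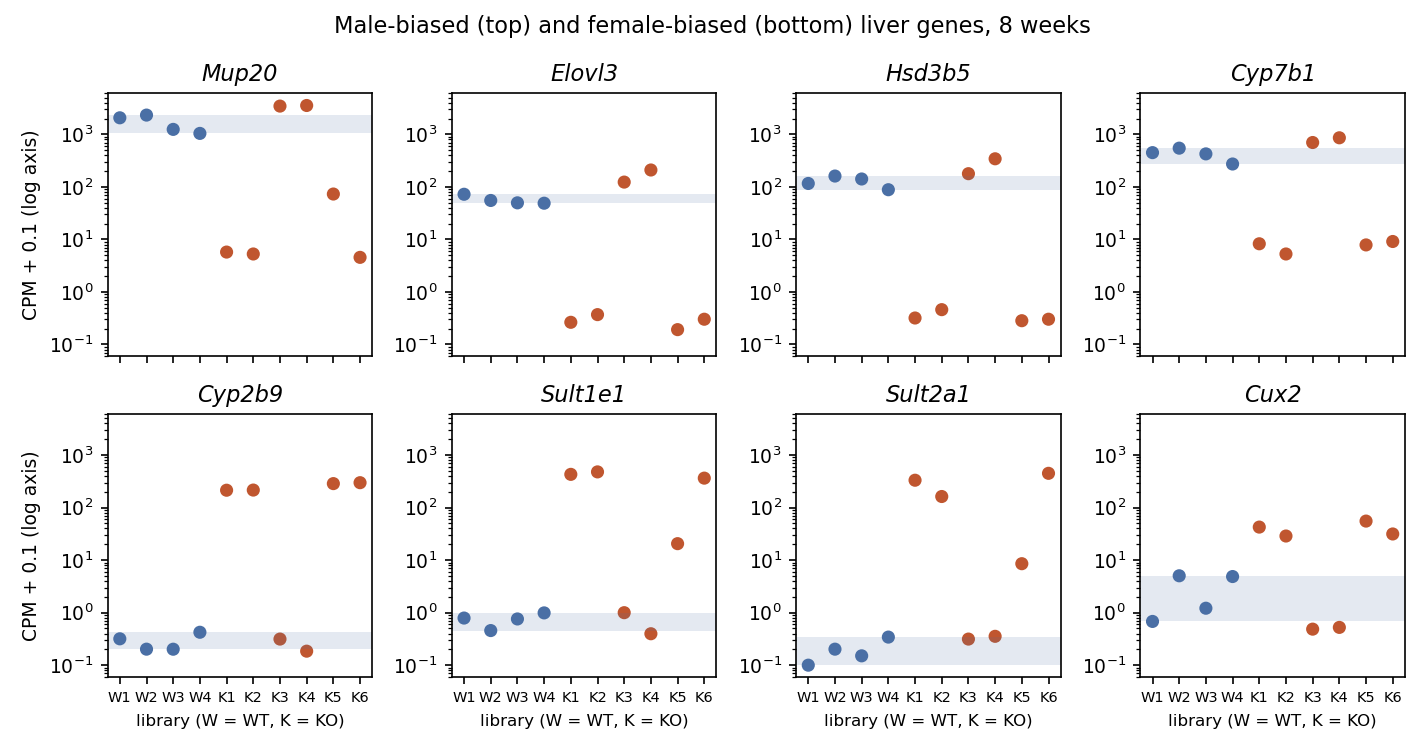
Level of male-biased and female-biased genes in each 8-week library, as CPM plus 0.1 on a log axis, with the shaded band marking the range of the 4 WT libraries. KO libraries 3 and 4 lay in or near the band, while libraries 1, 2, 5 and 6 lay far below it for Mup20, Elovl3 and Hsd3b5 and far above it for Cyp2b9 and Sult1e1, with Sult2a1 in KO library 5 at a lower level (8.45 CPM).

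Genes known to be higher in the female liver showed the opposite. Of 34 female-biased genes tested, 26, 25, 2, 1, 26 and 25 were higher in KO libraries 1 to 6, and 20 were higher in exactly libraries 1, 2, 5 and 6. None was called by edgeR at 8 weeks, with a median fitted log2 difference of 2.68. DESeq2 called members of the list, among them Cyp2b13 and Sult2a2 (DESeq2 adjusted p = 4.9e-07 and 5.8e-06). Cyp2b9, a female-specific cytochrome P450, was at 0.218, 0.102, 0.101 and 0.323 CPM in WT, at 0.214 and 0.0848 CPM in KO libraries 3 and 4, and at 214, 216, 286 and 298 CPM in KO libraries 1, 2, 5 and 6. No library lay between 0.323 and 214 CPM, and the fitted log2 difference was 9.73 (SE 2.26, edgeR adjusted p = 0.474). DESeq2 called Cyp2b9 (DESeq2 adjusted p = 2.1e-07).

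Cux2, a transcription factor that holds male genes down in the female liver, was at 0.580 to 4.93 CPM in WT, 0.385 and 0.424 CPM in KO libraries 3 and 4, and 28.7 to 55.2 CPM in the others. Marco, a scavenger receptor, was at 4.91 to 15.5 CPM in WT, 6.81 and 4.07 CPM in KO libraries 3 and 4, and 115 to 235 CPM in the rest. Lepr, the leptin receptor, had 7.17 to 22.5 CPM in WT and 9.502 and 8.06 CPM in KO libraries 3 and 4. In the rest it spread more widely, with 1074, 182, 492 and 84.3 CPM in KO libraries 1, 2, 5 and 6. Cyp2a4, a steroid 15-alpha-hydroxylase, stood at 2.85 to 5.08 CPM in WT and at 333, 65.9, 2.10, 2.97, 425 and 171 CPM in KO libraries 1 to 6, and its copies in the Cyp2a family make the counts uncertain.

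Sulfotransferases, the enzymes behind the sulfation named in the study's title, were divided in the same way. Of 19 genes of sulfation tested, 8, 8, 1, 1, 9 and 9 were higher in KO libraries 1 to 6, and 4, 2, 1, 2, 3 and 2 were lower. Sult2a1, which sulfates bile acids and steroids, was at 0, 0.102, 0.0506 and 0.243 CPM in WT, 0.214 and 0.254 CPM in KO libraries 3 and 4, and 332, 162, 8.45 and 449 CPM in KO libraries 1, 2, 5 and 6. KO library 5 was the lowest of these 4. Members of the Sult2a cluster may share reads with their copies, which was not measured. Sult1e1, the estrogen sulfotransferase, was at 0.356 to 0.889 CPM in WT, 0.899 and 0.297 CPM in KO libraries 3 and 4, and 429, 478, 20.5 and 364 CPM in KO libraries 1, 2, 5 and 6.

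Other members of the sulfation list differed in size and direction. Sult1a1, a phenol sulfotransferase, was at 140 to 211 CPM in WT, 166 and 109 CPM in KO libraries 3 and 4, and 535 to 724 CPM in the others. Sult2a8, a male-biased bile acid sulfotransferase, went the opposite way, with 789 to 932 CPM in WT, 970 and 1256 CPM in KO libraries 3 and 4, and 135 to 379 CPM in the others. Papss2, the main liver maker of the sulfate donor, was at 219 to 271 CPM in WT and at 391, 272, 179, 231, 506 and 451 CPM in KO libraries 1 to 6. KO library 5 alone passed the 2-fold rule for Papss2. Its paralog Papss1, described above, passed that rule in KO libraries 3, 4 and 5. None of the 19 was called by edgeR at 8 weeks. DESeq2 called members of the list, among them Papss1, Sult2a1 and Sult1e1 (DESeq2 adjusted p = 1.7e-06, 1.7e-06 and 5.8e-06).

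Bile acid synthesis genes were divided as well. The list summed to 9829 to 11099 CPM in WT, to 11757 and 11960 CPM in KO libraries 3 and 4, and to 6542, 6093, 7280 and 6445 CPM in KO libraries 1, 2, 5 and 6. Its median log2 shift was -0.37, -0.52, 0.11, 0.11, -0.21 and -0.28 in KO libraries 1 to 6. Of 19 genes tested, 4, 5, 0, 0, 4 and 6 were lower in KO libraries 1 to 6, 3, 1, 0, 1, 1 and 2 were higher, and none was called by edgeR. Cyp7a1, the rate-limiting enzyme of the classical pathway, was at 594, 1035, 625.3 and 504 CPM in WT and at 23.9, 34.03, 419, 395, 535 and 213 CPM in KO libraries 1 to 6 (log2 difference -1.35, SE 0.74, edgeR adjusted p = 0.505). Libraries 1 and 2 were far below WT and library 5 was inside it. Cyp7b1, a male-biased gene that hydroxylates oxysterols in the alternative pathway, was at 273 to 546 CPM in WT, 700 and 861 CPM in KO libraries 3 and 4, and 5.18 to 9.04 CPM in the others. Cyp39a1, another oxysterol hydroxylase, was the reverse, at 31.5 to 49.9 CPM in WT, 29.2 and 26.7 CPM in KO libraries 3 and 4, and 188 to 414 CPM in the others.

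Cyp8b1, which steers synthesis towards cholic acid, was at 242 to 427 CPM in WT and at 294, 203, 397, 428, 138 and 52.6 CPM in KO libraries 1 to 6. Cyp27a1, which starts the alternative pathway, was at 422 to 514 CPM in WT and 315 to 542 CPM in KO, with no library 2-fold away. Baat, the enzyme that joins bile acids to taurine, was also within 2-fold everywhere, at 196 to 224 CPM in WT and 133 to 235 CPM in KO. Nr0b2, which encodes SHP, the repressor induced by bile acids, was at 3.12 to 4.89 CPM in WT and at 5.70, 20.2, 5.05, 4.24, 6.48 and 11.4 CPM in KO libraries 1 to 6. KO libraries 2 and 6 were the highest for this gene, and the groups overlapped.

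Among 20 transporter genes, Slc10a1 was the one call. By library, 6, 3, 0, 0, 2 and 5 of the 20 were higher and 7, 5, 1, 2, 5 and 6 lower. Slco1a1, a sodium-independent uptake carrier and a male-biased gene, was at 594 to 854 CPM in WT, 868 and 991 CPM in KO libraries 3 and 4, and 41.2, 49.9, 22.3 and 16.4 CPM in KO libraries 1, 2, 5 and 6. Its paralog Slco1a4 was the opposite, at 18.8 to 85.6 CPM in WT, 25.04 and 38.8 CPM in KO libraries 3 and 4, and 326 to 1018 CPM in the others. Slco1b2, the main hepatocyte carrier of unconjugated bile acids, stayed within 2-fold, at 1390 to 1597 CPM in WT and 775 to 1851 CPM in KO.

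Neither Abcb11 nor Abcc4, a pair of export pumps, passed the test. Abcb11, the bile salt export pump, was at 519 to 658 CPM in WT and at 235, 440, 623, 784, 596 and 513 CPM in KO libraries 1 to 6, so that library 1 alone was 2-fold lower. Abcc4, a pump on the blood side, was at 2.85 to 5.62 CPM in WT and at 36.4, 13.9, 3.72, 2.71, 7.90 and 27.0 CPM in KO libraries 1 to 6, past the 2-fold rule in libraries 1, 2 and 6. Slc10a2, the paralog of NTCP found on bile duct cells, was at 33.7 to 83.5 CPM in WT and at 9.12, 9.92 and 8.71 CPM in KO libraries 4, 5 and 6, against 35.4 to 41.2 CPM in libraries 1 to 3. It was chosen after its values were seen, as a gene of this list whose lower libraries included library 4.

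Promoter letters were looked at where members moved together. The 250 bases upstream of RefSeq starts on GRCm38.p6 were searched on both strands for TTCNNNGAA (a STAT5 site), CACGTG (an E-box bound by the clock), TTATGTAA (a D-box bound by DBP and its kin) and AGGTCA (the core of many nuclear receptor sites). Of 32851 promoters in all, 7.02%, 6.02%, 0.819% and 14% held the respective letters, and of 13541 promoters of tested genes 6.09%, 8.01%, 0.539% and 11.5% did. Among genes lower in exactly KO libraries 1, 2, 5 and 6, 142 of 213 had an entry, with 193 promoters, of which 50 (25.9%) held AGGTCA. Among genes higher in exactly those libraries it was 23 of 156 promoters (14.7%) from 125 of 200 genes. The STAT5, E-box and D-box letters were in 6.22%, 5.18% and 0.518% of the promoters of the lower genes. In those of the higher genes they were in 8.33%, 3.85% and 1.28%. A match is a description of letters and not a bound site. Slco1a1 is shown as a strongly divided gene with AGGTCA at 2 places, once on each strand, in capitals; the region is chr6:141946963-141947212 on the minus strand.
Slco1a1: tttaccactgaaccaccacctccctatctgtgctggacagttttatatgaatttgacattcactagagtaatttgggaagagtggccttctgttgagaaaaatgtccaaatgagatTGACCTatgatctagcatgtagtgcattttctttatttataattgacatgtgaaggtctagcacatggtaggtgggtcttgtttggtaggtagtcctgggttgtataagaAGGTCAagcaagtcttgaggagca

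Genes of growth hormone action, the pathway that sets the sex bias, were mixed. Of 21 tested, 6, 4, 1, 0, 9 and 4 were higher and 6, 4, 0, 2, 2 and 5 lower in KO libraries 1 to 6, with none called by edgeR. Ghr, the receptor itself, was at 661 to 735 CPM in WT, 650 and 760 CPM in KO libraries 3 and 4, and 367 to 477 CPM in the others. Igfals, which carries circulating IGF1, was at 54.0 to 79.2 CPM in WT, 86.8 and 101 CPM in KO libraries 3 and 4, and 7.79, 12.4, 41.1 and 18.7 CPM in KO libraries 1, 2, 5 and 6. Igf1, the growth factor made under growth hormone, was at 712 to 1020 CPM in WT and at 328, 448, 974, 975, 695 and 423 CPM in KO libraries 1 to 6.

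Other genes of this list were divided too. Prlr, the prolactin receptor and a female-biased gene, was at 43.2 to 163 CPM in WT, 46.3 and 85.3 CPM in KO libraries 3 and 4, and 197 to 298 CPM in the others. Igfbp1, a binding protein that rises in fasting and stress, was at 61.6, 70.7, 67.3 and 273 CPM in WT, 51.0 and 20.7 CPM in KO libraries 3 and 4, and 8134, 1950, 557 and 779 CPM in KO libraries 1, 2, 5 and 6. Library 1 was the highest for Igfbp1. It was also the highest for Cdkn1a, a brake on the cell cycle that belongs to the cell cycle list. Cdkn1a was at 310 CPM there, beside 83.4, 9.60 and 11.1 CPM in KO libraries 2, 5 and 6 and 2.79 to 8.65 CPM in WT.

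A smaller set of genes lay on both sides of WT, depending on the KO liver. In 19 genes, KO libraries 3 and 4 were higher and libraries 1, 2, 5 and 6 lower. Elovl3 was one of them, as were Mup9 and Mup16, urinary protein genes with near-identical copies. Mup16 was at 72.4 to 222 CPM in WT, 321 and 439 CPM in KO libraries 3 and 4, and 0.135 to 0.781 CPM in the others. In 21 genes, libraries 1, 2, 5 and 6 were higher and library 4 lower. Slc22a26, an organic anion transporter, was among them, at 0.435 to 3.44 CPM in WT, 0.127 CPM in KO library 4, 0.556 CPM in KO library 3, and 138 to 303 CPM in the others. Tat, a liver amino acid enzyme under glucocorticoid control, was split further, at 12261 CPM in KO library 1, 2132 to 4241 CPM in WT, and 1301 and 732 CPM in KO libraries 3 and 4. Moxd1, a monooxygenase-like gene, was at 192 CPM in KO library 3 and at 0 to 0.329 CPM in KO libraries 1, 2, 5 and 6, but WT itself ranged from 3.19 to 57.9 CPM.

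Drug-response genes moved most in KO library 1. Of 26 targets of the receptors CAR and PXR, 15, 9, 1, 0, 6 and 9 were higher in KO libraries 1 to 6, and none was called by edgeR. Of all genes tested, 11.8%, 6.38%, 0.744%, 0.675%, 4.15% and 4.75% were higher in these libraries. KO library 1 thus had the most genes higher over all genes as well. Cyp2b10, the classical CAR target, was at 0.152 to 0.728 CPM in WT, 0.556 and 0.466 CPM in KO libraries 3 and 4, and 32.6 to 70.8 CPM in the others. It is also known as a female-biased gene. Cyp3a11, the classical PXR target, was at 1739 to 2261 CPM in WT and at 5304, 5550, 1358, 3383, 3273 and 2499 CPM in KO libraries 1 to 6, with libraries 1 and 2 past the 2-fold rule.

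Daily clock genes set KO libraries 1 and 2 apart from libraries 5 and 6. Of 19 tested, 8, 10, 0, 3, 2 and 1 were lower in KO libraries 1 to 6, with none called. Arntl, the partner of CLOCK, was at 1.42 to 2.63 CPM in WT and at 46.8, 46.6, 2.44, 1.78, 5.05 and 4.13 CPM in KO libraries 1 to 6. Dbp, a clock output factor, was at 39.6 to 66.1 CPM in WT and at 4.50, 1.22, 52.1, 67.5, 34.4 and 28.7 CPM. Per3, a period gene, was at 51.4 to 68.7 CPM in WT, 4.55 and 11.1 CPM in KO libraries 1 and 2, and 48.8 to 66.9 CPM in the other 4. Ciart, a repressor of the clock, was at 27.0 to 33.8 CPM in WT and at 13.5, 6.49, 19.6, 10.9, 14.6 and 23.9 CPM in KO libraries 1 to 6, lower than WT in all 6 but 2-fold lower in libraries 1, 2, 4 and 5. The opposite moves of Arntl and of Dbp and Per3 in the same 2 livers differ from the pattern of the sex-biased genes, where libraries 5 and 6 went with 1 and 2. The time of day at which each liver was taken is not in the labels, and its part was not tested.

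The upstream letters of a pair of clock genes are shown because they hold the letters searched, whereas the windows of Arntl and Dbp held neither CACGTG nor TTATGTAA. Per3 (chr4:151044666-151044915, minus strand) holds the D-box letters TTATGTAA at 2 places and Ciart (chr3:95882229-95882478, minus strand) the E-box letters CACGTG at 3, in capitals. Among genes lower in exactly KO libraries 1 and 2, 19 of 170 promoters (11.2%) held CACGTG, beside 8.01% of the promoters of tested genes. TTATGTAA was in 2 of the 170 (1.18%), beside 0.539%. Among genes higher in exactly those libraries, 10 of 195 promoters (5.13%) held CACGTG and 0 held TTATGTAA.
Per3: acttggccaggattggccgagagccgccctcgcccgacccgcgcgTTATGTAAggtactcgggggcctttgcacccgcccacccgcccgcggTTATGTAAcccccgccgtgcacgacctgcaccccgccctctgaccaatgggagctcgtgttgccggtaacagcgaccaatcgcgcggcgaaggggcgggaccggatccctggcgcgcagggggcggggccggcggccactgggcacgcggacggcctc
Ciart: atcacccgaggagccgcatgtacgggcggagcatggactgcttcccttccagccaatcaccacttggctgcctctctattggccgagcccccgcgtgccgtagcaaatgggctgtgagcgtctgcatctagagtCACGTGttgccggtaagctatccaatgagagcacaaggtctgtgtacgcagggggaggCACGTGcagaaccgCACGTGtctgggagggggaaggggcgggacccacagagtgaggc

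Cholesterol synthesis and red cell transcripts moved in KO libraries 1, 2 and 6. Of 25 genes of cholesterol synthesis and its control, 11, 9, 0, 0, 0 and 6 were higher in KO libraries 1 to 6. Lss, which closes the sterol rings, was at 34.4 to 45.8 CPM in WT and at 328, 169, 32.9, 35.5, 48.7 and 161 CPM in KO libraries 1 to 6. Hmgcs1, an early enzyme of the pathway, was at 144 to 233 CPM in WT and at 231, 552, 108, 205, 149 and 476 CPM. Library 5, which was among the 4 for sex-biased genes, stayed with WT for both.

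Red cell transcripts followed these same 3 libraries. Hbb-bs, an adult globin, was at 47.2 to 80.2 CPM in WT and at 293, 402, 30.5, 68.6, 120 and 323 CPM in KO libraries 1 to 6. Over the 9 erythroid genes, of which the globins are near-identical copies, 7 were higher in each of KO libraries 1, 2 and 6 and 7 were lower in KO library 3. The list summed to 184 to 238 CPM in WT and to 531, 704, 168, 234, 222 and 607 CPM in KO. Red cell transcripts were thus highest in the same 3 livers in which Lss was highest, and their part in that result was not tested.

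Marker lists of macrophages, stellate cells, endothelial cells and hepatocytes summed above WT in KO libraries 1, 2, 5 and 6. Those of lymphocytes and bile duct cells were mixed. The macrophage list summed to 629 to 998 CPM in WT and to 1365, 1325, 630, 579, 1120 and 1272 CPM in KO libraries 1 to 6. That list includes Marco, described above, which was at 235, 175, 115 and 165 CPM in KO libraries 1, 2, 5 and 6. Marco was the 1 macrophage gene past the 2-fold rule in KO library 5. The stellate and fibrosis list summed to 724 to 975 CPM in WT and to 1537, 1257, 645, 817, 1271 and 1245 CPM in KO. The endothelial list summed to 762 to 800 CPM in WT and to 1208, 871, 729, 730, 942 and 904 CPM in KO libraries 1 to 6. Only part of each list passed the 2-fold rule. Of all genes tested, 11.8%, 6.38%, 0.744%, 0.675%, 4.15% and 4.75% were higher in KO libraries 1 to 6. By library, 4, 4, 0, 0, 1 and 3 of 15 macrophage genes were higher, and 0 lower. Of 18 endothelial genes, 4, 2, 0, 0, 1 and 1 were higher, and 0 lower. The endothelial counts in KO libraries 5 and 6 were thus near the share of all genes. Of 21 stellate genes, 8, 5, 0, 0, 2 and 5 were higher and 1, 0, 1, 1, 1 and 0 lower. The lymphocyte list summed to 13.4 to 41.5 CPM in WT and 59.98, 47.2, 17.7, 17.2, 27.2 and 57.996 CPM in KO libraries 1 to 6. The bile duct list summed to 274 to 354 CPM in WT and to 168, 263, 374, 383, 396 and 350 CPM in KO libraries 1 to 6, below WT in libraries 1 and 2. No marker of these lists was called by edgeR. DESeq2 called some, among them Marco and Cldn5, an endothelial gene (DESeq2 adjusted p = 0.0183 and 0.0016). The hepatocyte list summed to 113359 to 125109 CPM in WT and to 239305, 232974, 116256, 101035, 202691 and 190138 CPM in KO libraries 1 to 6, for the most part through Alb. Alb itself, the serum albumin gene, was at 54955 to 64667 CPM in WT, at 60230 and 46628 CPM in KO libraries 3 and 4, and at 122776 to 152907 CPM in the others.

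Inflammatory and antiviral genes did not follow 1 pattern. Of 30 interferon-response genes, 18, 1, 0, 0, 0 and 8 were lower in KO libraries 1 to 6, for example Ifit1 at 8.42 to 12.3 CPM in WT, 1.97 and 3.08 CPM in KO libraries 1 and 6, and 6.31 to 17.5 CPM in the rest. Of 31 acute-phase genes, 7, 1, 0, 14, 3 and 4 were lower and 9, 9, 0, 0, 5 and 2 higher in KO libraries 1 to 6. Saa1, serum amyloid A, was at 989, 1142, 52.8 and 1393 CPM in WT and at 15.2, 163, 328, 39.9, 523 and 108 CPM in KO libraries 1 to 6. WT library 3 was itself low, and the groups overlapped.

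Part of the cell cycle list was higher in KO libraries 1, 2 and 5. Of 29 tested, 10, 15, 0, 1, 9 and 1 were higher in KO libraries 1 to 6, with none called. The list includes Cdkn1a, the brake named above, which was higher in KO libraries 1, 2, 5 and 6. Cdkn1a was the 1 higher gene of the list in library 6. Mki67, a marker of dividing cells, was at 5.65 to 11.1 CPM in WT and at 38.7, 42.4, 4.02, 10.5, 15.8 and 12.6 CPM in KO libraries 1 to 6. Top2a, which untangles DNA in division, was at 3.25 to 6.89 CPM in WT and at 14.8, 25.5, 2.65, 4.62, 10.2 and 4.82 CPM. KO library 6 was near WT for the list (median log2 shift 0.04), unlike for the sex-biased genes.

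**Figure D5:**
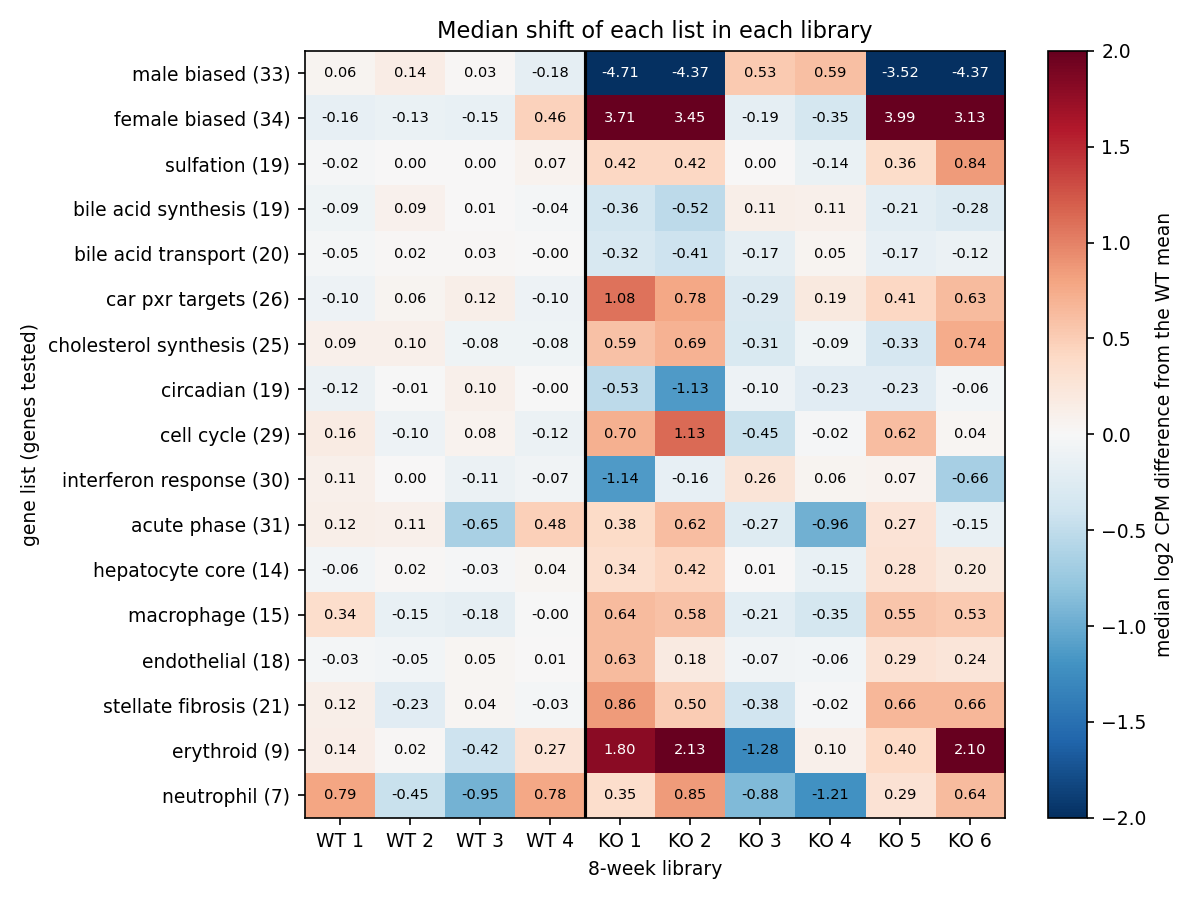
Median difference in log2 CPM from the WT mean for 17 gene lists in each 8-week library, with colour limited to -2 to 2. KO libraries 1, 2, 5 and 6 were alike for the male-biased and female-biased lists and unlike one another for the circadian, cholesterol, erythroid and cell cycle lists.

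Whether the genes of these patterns also differed at another age was looked up in the 4-week and 20-month libraries, which have their own WT controls. At 4 weeks edgeR called 10.8% of 11144 genes, 5.17% higher (576) and 5.6% lower (624). These calls became 85 and 149 without WT library 2, 65 and 119 without WT library 3, 208 and 221 without KO library 3, 321 and 368 without WT library 1, and 1046 and 966 without KO library 1 of that age. Of the 716 genes higher in some 8-week KO libraries, 388 were tested at 4 weeks, and 86 rose there (22.2% of those tested, 12% of all 716) while 4 fell. Of the 648 lower ones, 331 were tested, 130 fell (39.3% of those tested, 20.1% of all 648) and 5 rose. The 86 and 130 were 14.9% and 20.8% of all calls in their direction at that age. They rest on 3 libraries a group, and became 30 and 57 without WT library 2, 22 and 48 without WT library 3, and 49 and 73 without KO library 3 of that age.

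The look-up differed with the set of 8-week libraries. Of 200 genes higher in exactly KO libraries 1, 2, 5 and 6, 129 were tested at 4 weeks, of which 52 rose (40.3%) and 1 fell. Of 213 genes lower in them, 119 were tested, of which 85 fell (71.4%) and 0 rose. Of the 31 genes higher in exactly KO libraries 3 and 4, 13 were tested at 4 weeks, of which 10 fell and 0 rose by edgeR. This is not a separate set, as 19 of the 31 were also lower in exactly KO libraries 1, 2, 5 and 6. Of the 3 that were lower in no KO library, 2 were tested at 4 weeks and 0 were called. Of the male-biased list 27 of 32 members tested at 4 weeks fell and 0 rose, and of the female-biased list 14 of 28 rose and 1 fell. Elovl3 fell by 8.23, Mup20 by 6.08 and Cyp7b1 by 3.42 on the log2 scale at 4 weeks (edgeR adjusted p = 1.5e-04, 1.2e-04 and 1.5e-04), where all 3 KO libraries are included. Sult1e1 rose by 8.88 at that age (edgeR adjusted p = 2.6e-04). Cyp2a4 went against the 8-week direction, with -2.18 at 4 weeks (adjusted p = 0.0452).

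Of the 4 genes called at 8 weeks, Slc10a1 alone was called at 4 weeks, in which the 2 predicted genes were not tested. Gm17167 was at 0, 0.158 and 0 CPM in WT and 0.156, 0 and 0.197 CPM in KO at 4 weeks. Gm5859 was at 0 CPM in each WT library and at 0, 0.188 and 0 CPM in KO at that age. Slc10a1 was at 543, 632 and 606 CPM in WT and 99.7, 237 and 131 CPM in KO at 4 weeks, a fall on the log2 scale of -1.93 (SE 0.33, edgeR adjusted p = 0.0117). That call was lost without WT library 2, WT library 3 or KO library 3 of that age. Tymp was at 126, 35.6 and 63.5 CPM in WT and 112, 54.4 and 79.8 CPM in KO at 4 weeks, a difference of 0.13 (adjusted p = 0.871) with full overlap. The difference between its 8-week and 4-week effects was 1.85 (SE 0.47, edgeR adjusted p = 0.0793 in 1 fit of 22 libraries), so a change of the Tymp effect with age did not pass. For Slc10a1 that difference was -0.80 (adjusted p = 0.340).

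At 20 months no gene passed edgeR, 0 of 13966 (0%), although 772 had an unadjusted p below 0.05 and DESeq2 called 8 higher and 35 lower. Without WT library 3 of that age, edgeR called 7 higher and 64 lower. Slc10a1 was at 160, 380 and 297 CPM in WT and at 109, 94.1 and 94.7 CPM in KO, with no overlap and a log2 difference of -1.49 (edgeR adjusted p = 0.821). Tymp was at 53.1, 55.2 and 87.3 CPM in WT and at 132, 87.0 and 118 CPM in KO, with a log2 difference of 0.78 (adjusted p = 0.821), and the lowest KO library lay just inside the WT range. Elovl3 and Slco1a1, both low in 4 of the 6 KO livers at 8 weeks, had log2 differences of 0.79 and 1.27 at 20 months (adjusted p = 0.871 and 0.825). Gm17167 and Gm5859 were not tested at 20 months. Gm17167 was at 0.431, 0.212 and 0.0573 CPM in WT and at 0.0916, 0.0456 and 0.130 CPM in KO. Gm5859 was at 0 CPM in every WT and KO library of that age. Whether their difference at 8 weeks reflects a loss in KO or a raised level in WT was not tested. The library types and depths of the ages differ, so levels are compared within an age only.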

How the data were processed

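Liver poly(A) RNA of 22 male C57BL/6 mice was sequenced, and the 10 libraries of 8 weeks are the subject here. The authors deposited raw counts of reads per Ensembl gene, 1 table a library, and per the submitters' processing notes the tools were HISAT2 2.0.4 and HTSeq 0.6.1p1 on GRCm38. The annotation release and the strand setting are not given in the sources used here. Lines that name no gene (13.91% to 17.78% of reads outside genes and 5.28% to 7.3% ambiguous at 8 weeks) were left out. Symbols were found for 47310 of 47729 genes.

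Counts were compared in R 4.3.3 with edgeR 4.0.16 (filterByExpr, TMM scaling, 2-sided quasi-likelihood test, no covariate, 4 WT against 6 KO), at a Benjamini-Hochberg adjusted p below 0.05 over all genes tested. The biological coefficient of variation was 0.321 at 8 weeks, 0.266 at 4 weeks and 0.339 at 20 months. DESeq2 1.42.0, other filters and scalings, subsets of libraries and leaving out each library were the alternatives. The script was checked on simulated counts. CPM values at each age use TMM factors of the libraries of that age, and precision from depth covers counting error only. Counts assigned to genes were 5496425 to 6956124 a library at 4 weeks and 18032355 to 26789350 at 20 months.

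No 2 libraries of the 8-week groups were alike enough to be 1 library (smallest chi-square per degree of freedom 13.24). The genes and 31 gene lists were chosen with earlier results of these data known. The rule for named genes takes a panel of 29 genes, genes moved alike, up to 12 higher and 12 lower genes moved in some KO libraries (mean log2 CPM 1 or higher), 6 genes moved in both directions and 2 genes of each list by adjusted p. Other genes named were chosen after their values were seen, as members of these lists. KO libraries were not pooled by what they showed. Promoter sequences are RefSeq's, on GRCm38.p6.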

Additional observations from a re-analysis of the deposited data

Results flagged for a closer look

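Among 32 named genes, the WT and KO groups of each were searched for a library far from the rest by Dixon's criterion (0.829 for 4 libraries, 0.625 for 6), 64 groups in all. The criterion picked out Sult2a2 in WT library 4, at 0.0404 CPM where the other 3 WT libraries were at 0. That value is below the floor of 3 counts, and chance alone picks out about 1 in 20 groups. No KO group of these genes was picked out. No gene of the panel passed the test of a difference between its 8-week effect and its effect at another age.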

How the results depend on the processing

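The 1 higher and 3 lower calls became 74 and 33 by DESeq2 and 0 and 1 with KO libraries 1 to 3 only. Leaving out 1 library gave 0 to 1 and 1 to 4. The library numbers do not pair WT with KO (correlations of same-numbered deviations -0.00147, -0.159, 0.0727 and -0.327), and a fit with the replicate number as a block over libraries 1 to 4 called 0 and 0. Genes moved alike (1 and 3) were 0 higher at a 4-fold shift, 1 lower at a mean log2 CPM of at least 1, 2 and 5 with no call required, and 191 and 176 at any size with no call, an alternative added after seeing the data. Leaving out 1 library gave 0 to 1 and 1 to 4. Genes moved in some libraries (716 and 648) were 1488 and 1445 at a 1.5-fold shift, 156 and 148 at 4-fold, 400 and 353 at a mean log2 CPM of at least 1, and 1381 and 1046 with no filter on low counts. With no KO library required inside the WT range (added after seeing the data) the lower count was 992. Leaving out 1 library gave 387 to 773 and 387 to 638. The 86 and 130 genes also called at 4 weeks were 175 and 207 with no filter, and 22 to 125 and 48 to 162 with 1 library left out. The 1 alike gene called at 4 weeks ranged from 0 to 1. At 20 months, DESeq2 gave 2 higher, 10 lower and 1 alike, and leaving out 1 library gave 0 to 2 and 0 to 14, the last without WT library 3. Signs turned in genes near no difference. Elovl3 was 0.0115 in a fit of all 22 libraries and 0.29 with KO libraries 4 to 6 only, and ranged from -1.18 to 0.24 with 1 library left out. Abcb11 was 0.0949 with KO libraries 4 to 6 only and from -0.29 to 0.0150 with 1 library left out, the last without KO library 1. Cyp8b1 was 0.0396 with the replicate block. The cause of these changes was not tested. Depth limits the 2 predicted genes of chromosome 4, with at most 9 reads in a KO library.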

Other observations

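Lists not described above were divided among the KO livers as well. Of 18 glucuronidation genes tested at 8 weeks, 8, 6, 0, 0, 5 and 7 were lower in KO libraries 1 to 6, 5 of them in exactly libraries 1, 2, 5 and 6. None was called by edgeR. At 4 weeks 7 of 17 tested members of this list fell and 0 rose by edgeR, beside 5.6% of all genes that fell and 5.17% that rose. Of 29 targets of the fatty acid receptor PPAR-alpha, 9, 4, 1, 1, 11 and 4 were higher and 5, 10, 0, 1, 0 and 5 lower in KO libraries 1 to 6. Cyp4a14, a fatty acid hydroxylase of that list, was at 18.0 to 187 CPM in WT, 116 and 112 CPM in KO libraries 3 and 4, and 531 to 1606 CPM in the others. Of 19 targets of the stress factor NRF2, 9, 5, 0, 1, 1 and 6 were higher in KO libraries 1 to 6.

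Interferon-response genes were lower in KO libraries 1 and 6 at 8 weeks, and 20 of the 27 members tested at 4 weeks fell there, with 0 rising, beside 5.6% of all genes that fell. Erythroid genes were higher in KO libraries 1, 2 and 6 at 8 weeks, whereas 4 of 7 members tested at 4 weeks fell, beside the same 5.6%. Cela1, an elastase gene, was at 6.55 to 9.61 CPM in WT, 15.3 and 15.6 CPM in KO libraries 3 and 4, and 2.48 to 4.34 CPM in the others, while Prss1, Cpa1 and Pnlip, which mark the pancreas, had 0 reads in all 10 libraries.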
